A study of Heterocephalus glaber and Mus musculus with 9 samples.

Results

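The nuclear-encoded subunits of the mitochondrial respiratory chain were followed in spleen RNA of the naked mole-rat (NM-R, Heterocephalus glaber) and the mouse. Members were all rows of the normalized count table whose symbol, in any letter case, starts with Nduf, Uqcr, Atp5 or Cox4 to Cox8, together with the Sdh genes and Cyc1. This rule found 70 of the 12946 genes in the table, and it used no measured value. Of these, 58 encode subunits (27 of complex I, 3 of complex II, 7 of complex III, 10 of complex IV and 11 of complex V) and 12 encode associated factors that assemble, link or inhibit the complexes. The 13 protein genes of the mitochondrial genome were left out. Symbols of this kind that the table does not list, such as Sdhd and Ndufa4, were not analysed here.

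RNA-seq was done on 9 spleens, 1 library per animal, without any treatment or transgene. The 3 mice were wild-type C57Bl/6N males aged 2 months, kept at 22 °C. The NM-Rs were healthy animals kept at 29 °C and were divided by spleen size into a small-spleen cohort (ssNM-R: animals 2, 3 and 6, males aged 30, 26 and 23 months) and a cohort with an enlarged spleen (lsNM-R: animals 1, 4 and 5, aged 24, 29 and 23 months, of which animal 4 was female). The species of the animals therefore cannot be told apart from their age or housing temperature, and every NM-R was at least 23 months old.

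The respiratory chain passes electrons from NADH (complex I) and succinate (complex II) through ubiquinone to complex III, from there through cytochrome c to complex IV, and lets protons flow back through complex V to make ATP. All of its complexes except complex II combine subunits from the mitochondrial genome with nuclear-encoded ones, which are translated in the cytosol and imported. Maturing red cells of the splenic red pulp still carry mitochondria, lymphocytes rely on the chain when they are activated, and several subunits of complex IV exist as isoforms that are typical of muscle, lung or testis.

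Of the NM-R libraries, those of lsNM-R 1 and ssNM-Rs 2 and 3 held 7815326 to 8985705 reads, those of lsNM-Rs 4 and 5 and ssNM-R 6 held 16883689 to 18387599, and the mouse libraries 10441982 to 11180912. A normalized count is the number of reads of a gene divided by the size factor of its library and is not divided by gene length, so levels of different genes are not compared with each other. Reads of each species were counted on its own gene models, whose lengths may differ, and the 2 cannot be told apart in a difference between species. Many subunit genes have near-identical processed pseudogenes, and the handling of reads that map to several places is not given in the sources used here, so that the levels of such members are uncertain. The tissue held markers of spleen cells in every group: the 11 B cell markers summed to 62056 to 63430.4 normalized counts in mice, 3781 to 6375 in ssNM-Rs and 4333 to 9053 in lsNM-Rs, with none at 0 throughout a group.

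Respiratory chain genes were, on balance, higher in NM-R spleens than in mouse spleens, but in every complex members that were higher stood beside members that were lower. The question of this comparison was how the spleens of the 2 species differ. Of the 70 members, 40 (57.1%) were called higher and 15 (21.4%) lower in NM-Rs at a limma adjusted p under 0.05, while 15 were not called. The background was high, since 39.7% of all 12946 genes were called higher and 38.8% lower. The median log2 fold change of the members was 0.42, against 0.01 for all genes. Differences are given on the scale of log2(normalized count + 1), which understates those of genes with few reads. As whole spleens were sequenced, fewer cells of a type and less RNA per cell cannot be told apart.

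**Figure D1:**
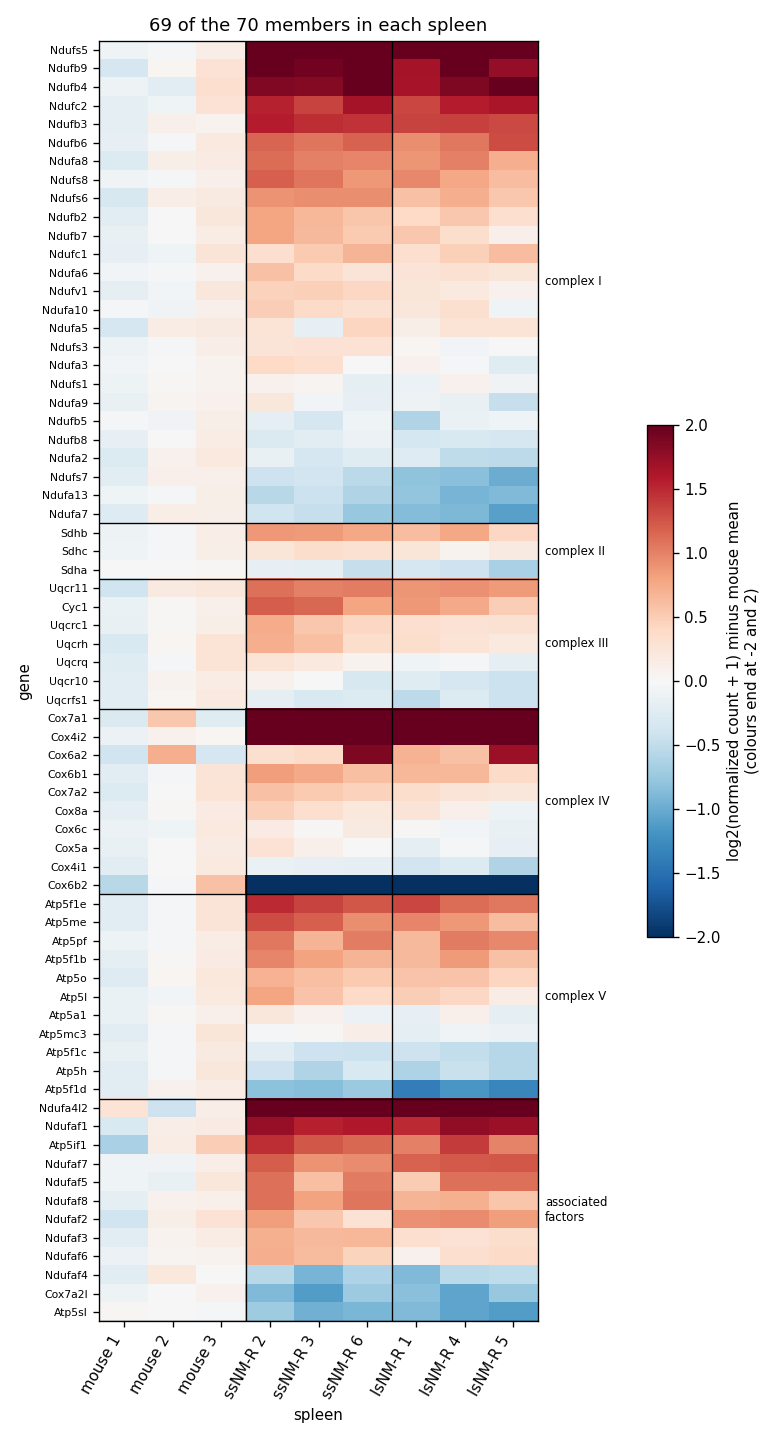
Heat map of 69 of the 70 members (rows, by complex, sorted by the NM-R difference) in the 9 spleens (columns), coloured by log2(normalized count + 1) minus the mean of the 3 mice, with colours ending at -2 and 2. The NM-R columns hold 40 members called higher and 15 called lower than in mice, and the direction of the strongly coloured rows is shared by all 6 NM-R spleens.

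Taken spleen by spleen, the species did not overlap. The median deviation of the members from the mouse mean was -0.18 in mouse 1, 0.00 in mouse 2 and 0.15 in mouse 3, on the log2 scale. It was 0.58, 0.53 and 0.41 in ssNM-Rs 2, 3 and 6, and 0.34, 0.29 and 0.24 in lsNM-Rs 1, 4 and 5. All 6 NM-R spleens thus lay above all 3 mice, and all 3 ssNM-Rs above all 3 lsNM-Rs.

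In complex I, the NADH dehydrogenase, 15 of 27 subunits were called higher and 5 lower in NM-Rs, against 39.7% and 38.8% of all genes. The median log2 fold change was 0.31. The higher subunits lay mostly in the membrane arm, the part of the enzyme that sits in the inner membrane and pumps protons, where 11 of 15 were called higher and 2 lower (median 0.55). In the module that binds NADH, 2 of 4 were higher and 1 lower (median 0.14). In the ubiquinone module 1 of 5 was higher and 1 lower (median 0.14). These parts as listed leave out some of the 27 subunits, among them Ndufa7, the lowest one called. The difference between arms was not tested.

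Ndufs5, an accessory subunit on the intermembrane space side, stood highest in the complex. Its levels were 247, 254 and 287 normalized counts in mice 1 to 3, 1644, 1563 and 1186 in ssNM-Rs 2, 3 and 6 and 1333, 1147 and 1048 in lsNM-Rs 1, 4 and 5. The lowest NM-R spleen lay far above the highest mouse, and the means differed 5.02-fold (log2 fold change 2.31 ± 0.13 SE, limma adjusted p = 1.08e-07). Ndufb9, an accessory subunit of the membrane arm with an LYR motif, followed with 597, 774 and 917 normalized counts in mice 1 to 3, 3408, 2861 and 3144 in ssNM-Rs 2, 3 and 6 and 2376, 3517 and 2553 in lsNM-Rs 1, 4 and 5. Here too the species did not overlap, and NM-Rs were 3.9-fold higher (log2 fold change 1.97 ± 0.16 SE, limma adjusted p = 1.52e-06). Ndufb4, another accessory subunit of that arm, had 143, 132 and 194 normalized counts in mice 1 to 3, 559, 555 and 613 in ssNM-Rs 2, 3 and 6 and 484, 567 and 633 in lsNM-Rs 1, 4 and 5. Its means were 156 ± 33.2 (SD, n = 3) in mice and 569 ± 52 (SD, n = 6) in NM-Rs, 3.64-fold higher in NM-Rs without overlap (log2 fold change 1.87 ± 0.14 SE, limma adjusted p = 9.44e-07).

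Several further subunits of the membrane arm were higher by more than 1 on the log2 scale: Ndufc2 by 1.52, Ndufb3 by 1.42 and Ndufb6 by 1.12. Ndufa8, on the intermembrane space side, was higher by 0.95, and Ndufb2, Ndufb7 and Ndufc1 by 0.55, 0.50 and 0.50. Core subunits of the hydrophilic arm were called higher as well. Ndufs8, which carries iron-sulfur clusters near the ubiquinone site, had 1442 to 2151 normalized counts (median 1765, n = 6) in NM-Rs and 892, 923 and 1008 in the mice (log2 fold change 0.91 ± 0.10 SE, limma adjusted p = 1.99e-05). Ndufv1, the flavoprotein that oxidizes NADH, had 1312 to 1710.0 normalized counts (median 1549, n = 6) in NM-Rs and 1087, 1190.3 and 1441 in the mice and overlapped slightly between the species (log2 fold change 0.31 ± 0.10 SE, limma adjusted p = 0.0127).

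The 5 complex I subunits called lower were Ndufa7, Ndufa13, Ndufs7, Ndufa2 and Ndufb8. Ndufa7, an accessory subunit of the matrix arm, measured 569, 751 and 744 normalized counts in mice 1 to 3, 518, 495 and 403 in ssNM-Rs 2, 3 and 6 and 373, 365 and 321 in lsNM-Rs 1, 4 and 5. All NM-Rs lay below all mice, by 1.67-fold in the mean (log2 fold change -0.75 ± 0.13 SE, limma adjusted p = 3.55e-04). Ndufa13, a membrane arm subunit also known as Grim19, had 414 to 584 normalized counts (median 490.1, n = 6) in NM-Rs and 748, 766 and 859.9 in the mice (log2 fold change -0.70 ± 0.09 SE, limma adjusted p = 3.80e-05). Ndufs7, a core iron-sulfur subunit that passes electrons to ubiquinone, had 743, 923 and 921 normalized counts in mice 1 to 3, 641, 659 and 592 in ssNM-Rs 2, 3 and 6 and 489, 479 and 429 in lsNM-Rs 1, 4 and 5. It was 1.57-fold lower in NM-Rs, again with no overlap (log2 fold change -0.66 ± 0.10 SE, limma adjusted p = 1.48e-04). Ndufs7 and Ndufs8 thus moved in opposite directions although both are core subunits of the same module. Ndufs1, the large iron-sulfur subunit, was not called and had a log2 fold change of -0.03.

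**Figure D2:**
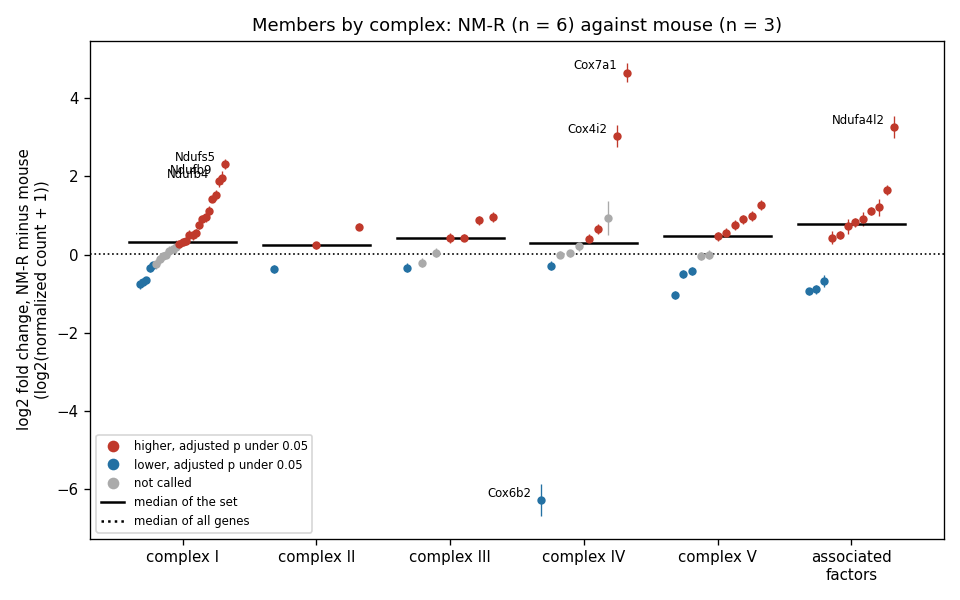
Log2 fold change of each member, NM-R (n = 6) minus mouse (n = 3), with its standard error, by complex. Red points were called higher, blue points lower and grey points not called, black bars give the median of each set and the dotted line that of all genes, 0.01. The medians lie between 0.23 in complex II and 0.77 for the associated factors, and Cox7a1 (4.65) and Cox6b2 (-6.28) stand at the ends.

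Complex II, the succinate dehydrogenase that also belongs to the tricarboxylic acid cycle, was split. Sdha, the flavoprotein that oxidizes succinate, had 4331, 4309 and 4409.7 normalized counts in mice 1 to 3, 3881, 3779 and 3163 in ssNM-Rs 2, 3 and 6 and 3442, 3274 and 2765 in lsNM-Rs 1, 4 and 5. Every NM-R lay below every mouse (log2 fold change -0.37 ± 0.10 SE, limma adjusted p = 0.00647). Sdhb, the iron-sulfur subunit, had 1122, 1175 and 1313 normalized counts in mice 1 to 3, 2189, 2157 and 2047 in ssNM-Rs 2, 3 and 6 and 1839, 2061 and 1599 in lsNM-Rs 1, 4 and 5, which was 1.65-fold higher in NM-Rs (log2 fold change 0.71 ± 0.10 SE, limma adjusted p = 6.53e-05). Sdhc, one of the membrane anchors, had 1077 to 1311 normalized counts (median 1211, n = 6) in NM-Rs and 960.3, 1001 and 1113 in the mice, with overlap (log2 fold change 0.23 ± 0.08 SE, limma adjusted p = 0.0217). The call of Sdhc was lost without mouse 1 (limma adjusted p = 0.0797), without mouse 2 (0.0790) or with all spleens scaled to the same total (0.0684).

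Of the 7 subunits of complex III, which carries electrons from ubiquinol to cytochrome c, 4 were called higher and 1 lower (median 0.41). The shares over all genes were 39.7% higher and 38.8% lower. Cyc1, cytochrome c1, had 1351, 1491 and 1587 normalized counts in mice 1 to 3, 3406, 3258 and 2556 in ssNM-Rs 2, 3 and 6 and 2674, 2495 and 2071 in lsNM-Rs 1, 4 and 5. It was 1.86-fold higher in NM-Rs, with no overlap (log2 fold change 0.88 ± 0.12 SE, limma adjusted p = 7.60e-05). Uqcr11, a small subunit, was higher as well, with 805 to 961 normalized counts (median 874, n = 6) in NM-Rs and 338, 508 and 522 in the mice (log2 fold change 0.96 ± 0.13 SE, limma adjusted p = 8.09e-05). Uqcrc1, a core protein of the matrix side, had 2923 to 4015 normalized counts (median 3108, n = 6) in NM-Rs and 2169, 2433 and 2608 in the mice (log2 fold change 0.44 ± 0.09 SE, limma adjusted p = 0.00183). The hinge protein Uqcrh was higher with overlap (log2 fold change 0.41). Uqcrfs1, the Rieske iron-sulfur protein, was the lower one, with 754 to 945 normalized counts (median 887, n = 6) in NM-Rs and 922, 1109.8 and 1235 in the mice (log2 fold change -0.33 ± 0.10 SE, limma adjusted p = 0.0147). Its call was lost without mouse 2 (limma adjusted p = 0.0569) or mouse 3 (0.0783).

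In complex IV, cytochrome c oxidase, of the 6 subunits used in most tissues 2 were called higher, 1 lower and 3 were not called. Their median log2 fold change was 0.12, against 0.31 over all 10 subunits, tissue isoforms included. Of all genes 39.7% were called higher and 38.8% lower. Cox6b1, which faces the intermembrane space, had 1121, 1267 and 1555 normalized counts in mice 1 to 3, 2322, 2199 and 1976 in ssNM-Rs 2, 3 and 6 and 2071, 2073 and 1696 in lsNM-Rs 1, 4 and 5. It was 1.56-fold higher in NM-Rs and did not overlap (log2 fold change 0.65 ± 0.12 SE, limma adjusted p = 5.91e-04). Cox7a2 had 815 to 1041 normalized counts (median 921, n = 6) in NM-Rs and 575, 693 and 837 in the mice, with overlap (log2 fold change 0.40 ± 0.11 SE, limma adjusted p = 0.00812). Cox4i1, the common isoform of the largest nuclear-encoded subunit, had 2821, 3309.9 and 3772 normalized counts in mice 1 to 3, 3000.2, 2916 and 2892 in ssNM-Rs 2, 3 and 6 and 2525, 2725 and 2157 in lsNM-Rs 1, 4 and 5. The species overlapped and NM-Rs were lower in the mean (log2 fold change -0.29 ± 0.11 SE, limma adjusted p = 0.0341). This call did not hold in limma without a trend (adjusted p = 0.0584), with a common upper quartile (0.108), or without mouse 2 (0.0953), mouse 3 (0.166), ssNM-R 3 (0.0582) or lsNM-R 5 (0.0628). Cox5a and Cox6c were not called and had log2 fold changes of -0.00 and 0.03. Cox8a was not called (log2 fold change 0.21 ± 0.11 SE, limma adjusted p = 0.106) but was called with a common upper quartile (adjusted p = 0.0195) and after quantile normalization (0.0378).

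The tissue isoforms of complex IV held the extremes of the whole set. Cox7a1, the isoform of heart and skeletal muscle, had 2.01, 4.35 and 2.1 normalized counts in mice 1 to 3, 84.8, 99.1 and 100.5 in ssNM-Rs 2, 3 and 6 and 100.3, 76.2 and 91.6 in lsNM-Rs 1, 4 and 5. The mouse values stand for 2, 4 and 2 reads, so the pooled ratio of NM-Rs to mice, 32.8, has an exact 95% binomial interval of 16.5 to 76.2 that covers counting error only. NM-Rs were higher in 6 of 6 spleens (log2 fold change 4.65 ± 0.24 SE, limma adjusted p = 8.20e-08). Cox4i2, the isoform of subunit 4 known from lung and from low oxygen, had 13, 15.2 and 14.7 normalized counts in mice 1 to 3, 199.7, 164 and 99.2 in ssNM-Rs 2, 3 and 6 and 109, 69.1 and 149 in lsNM-Rs 1, 4 and 5. It was 9.19-fold higher in NM-Rs without overlap (log2 fold change 3.03 ± 0.29 SE, limma adjusted p = 4.76e-06). Cox6b2, the testis isoform, went the other way, with 65.2, 94.6 and 146 normalized counts in mice 1 to 3, 0, 0 and 1.26 in ssNM-Rs 2, 3 and 6 and 0, 0.705 and 0 in lsNM-Rs 1, 4 and 5. The NM-R values stand for at most 2 reads in any spleen, and taking the floor of 3 reads per library, mice were at least 32.6-fold higher (n = 3 and n = 6; log2 fold change -6.28 ± 0.40 SE, limma adjusted p = 3.16e-07). One other row of the table carries the same 6 NM-R values as Cox6b2, which at 0 to 2 reads need not mean a shared gene. The median of the members stayed 0.42 with Cox6b2 set to this bound. Cox6a2, the muscle isoform of subunit 6a, had 18.1, 40.2 and 18.9 normalized counts in mice 1 to 3, 30.1, 31.5 and 89.7 in ssNM-Rs 2, 3 and 6 and 39.5, 36.7 and 80.9 in lsNM-Rs 1, 4 and 5. Its species overlapped and it was not called (log2 fold change 0.93 ± 0.43 SE, limma adjusted p = 0.0727), though it was called by DESeq2 (adjusted p = 0.0483) and without mouse 2 (limma adjusted p = 0.0355).

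Within each spleen, reads of Cox7a1 came to 0.251 to 0.627% of those of its common partner Cox7a2 in mice and to 8.15 to 11.3% in NM-Rs. Reads of Cox4i2 came to 0.389 to 0.462% of those of Cox4i1 in mice and 2.54 to 6.92% in NM-Rs, with the lowest share in lsNM-R 4 and the highest in lsNM-R 5. The common isoforms thus kept most of the reads of both pairs in all 9 spleens. Reads of Cox6b2 were 5.82 to 9.37% of those of Cox6b1 in mice and at most 0.0640% in NM-Rs. These ratios count reads, not molecules.

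**Figure D3:**
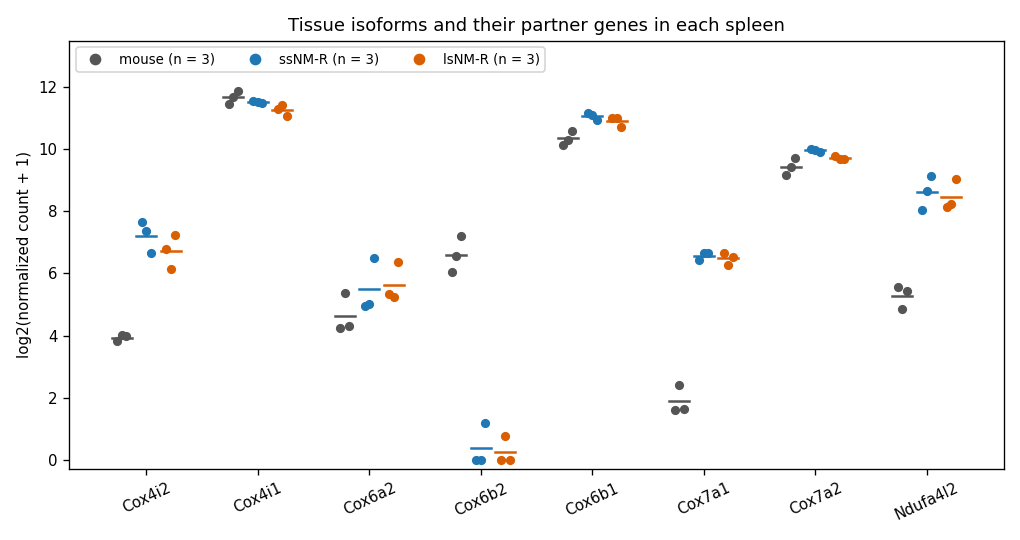
Log2(normalized count + 1) of the tissue isoforms of complex IV, their common partners and Ndufa4l2 in each spleen (points; bars give group means; n = 3 per group). Cox7a1, Cox4i2 and Ndufa4l2 are higher in all 6 NM-R spleens than in any mouse, Cox6b2 is near 0 in NM-Rs, and Cox4i1 and Cox6a2 overlap.

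Markers of smooth muscle and of adipose tissue were mostly higher in NM-Rs, and those of striated muscle were divided. Over all genes 39.7% were called higher and 38.8% lower. Of 9 smooth muscle markers 6 were called higher in NM-Rs and 1 lower, and they summed to 8663 to 11865 normalized counts in mice, 25262 to 40520.2 in ssNM-Rs and 20518 to 33733 in lsNM-Rs. Of 11 striated muscle markers 3 were called higher and 4 lower (median log2 fold change 0.35), although their sums were 214 to 347 in mice, 934 to 1475 in ssNM-Rs and 627 to 1343 in lsNM-Rs. Of 8 adipose markers 5 were higher and 0 lower, with sums of 72.8 to 152 in mice and 203 to 332 in NM-Rs. No smooth or striated muscle marker was at 0 throughout a group, and of the adipose markers Elovl3 was at 0 in all 3 mice. Their part in the levels of Cox7a1, Cox4i2 and Cox6a2 was not tested.

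Complex V, the ATP synthase, had 6 of 11 subunits called higher and 3 lower (median 0.46), against 39.7% and 38.8% of all genes. Atp5f1b, the catalytic beta subunit, had 8794, 10218 and 11236 normalized counts in mice 1 to 3, 19748, 17457 and 16072 in ssNM-Rs 2, 3 and 6 and 15669, 18035 and 14979.6 in lsNM-Rs 1, 4 and 5. It was 1.69-fold higher in NM-Rs with no overlap (log2 fold change 0.75 ± 0.13 SE, limma adjusted p = 3.17e-04), whereas Atp5a1, the alpha subunit that alternates with it in the catalytic head, overlapped and had a log2 fold change of -0.01. Atp5f1e, the small epsilon subunit of the central stalk, had 747, 845 and 1043 normalized counts in mice 1 to 3, 2446, 2220.4 and 2060.1 in ssNM-Rs 2, 3 and 6 and 2196, 1894 and 1817 in lsNM-Rs 1, 4 and 5. The means differed 2.4-fold and the species did not overlap (log2 fold change 1.27 ± 0.12 SE, limma adjusted p = 4.46e-06). Its neighbour in the central stalk, the delta subunit Atp5f1d, had 1695, 2126 and 2198 normalized counts in mice 1 to 3, 1131, 1105 and 1194 in ssNM-Rs 2, 3 and 6 and 759.9, 892 and 809 in lsNM-Rs 1, 4 and 5. Here NM-Rs were 2.04-fold lower, again with no overlap (log2 fold change -1.04 ± 0.10 SE, limma adjusted p = 5.85e-06). The gamma subunit Atp5f1c, which forms the turning shaft, was also lower (log2 fold change -0.42 ± 0.09 SE, limma adjusted p = 0.00194).

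Outside the catalytic head of complex V, the peripheral stalk was split too, while the subunits called in the membrane part were higher. Atp5pf, coupling factor 6 of the stalk, had 1623 to 2135 normalized counts (median 2053, n = 6) in NM-Rs and 957, 1002 and 1139.9 in the mice (log2 fold change 0.90 ± 0.12 SE, limma adjusted p = 6.55e-05). Atp5h, subunit d of the same stalk, had 1123 to 1399 normalized counts (median 1213, n = 6) in NM-Rs and 1495, 1708 and 2029 in the mice and was lower (log2 fold change -0.49 ± 0.11 SE, limma adjusted p = 0.0021). Atp5me, subunit e of the membrane part, had 681 to 1105 normalized counts (median 860.4, n = 6) in NM-Rs and 382, 434 and 529.6 in the mice (log2 fold change 0.98 ± 0.13 SE, limma adjusted p = 7.22e-05). Atp5o, which joins the stalk to the head, and Atp5l, subunit g, were higher by 0.56 and 0.46 on the log2 scale. Atp5mc3, one of the genes for the rotor ring, was not called (log2 fold change -0.04).

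All 12 associated factors were called, 9 of them higher and 3 lower in NM-Rs, where 39.7% and 38.8% of all genes were. Their median log2 fold change was 0.77. Whether they differed from the subunits (median 0.33) was not tested. Ndufa4l2, a relative of the complex IV subunit Ndufa4 that is known to respond to low oxygen, had 46.2, 28.3 and 41.9 normalized counts in mice 1 to 3, 264, 401 and 564 in ssNM-Rs 2, 3 and 6 and 284, 304 and 522 in lsNM-Rs 1, 4 and 5. All NM-Rs lay above all mice, by 10-fold in the mean (log2 fold change 3.26 ± 0.28 SE, limma adjusted p = 2.51e-06). Of the 8 assembly factors of complex I whose symbols start with Ndufaf, 7 were higher and 1 lower. Ndufaf1, which acts on the membrane arm, had 164, 223 and 227 normalized counts in mice 1 to 3, 679.6, 598 and 613 in ssNM-Rs 2, 3 and 6 and 571, 695 and 663 in lsNM-Rs 1, 4 and 5 (log2 fold change 1.65 ± 0.13 SE, limma adjusted p = 1.17e-06). The next were Ndufaf7 and Ndufaf5, at log2 fold changes of 1.11 and 0.91. Ndufaf4 was the exception, with 122 to 163 normalized counts (median 154, n = 6) in NM-Rs and 199.7, 234 and 267 in the mice (log2 fold change -0.67 ± 0.15 SE, limma adjusted p = 0.00248).

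Atp5if1, the inhibitor that stops complex V from breaking down ATP and is also known from haem synthesis in red cell precursors, had 788, 1361 and 1737 normalized counts in mice 1 to 3, 3434, 2898 and 2737 in ssNM-Rs 2, 3 and 6 and 2469, 3234 and 2435 in lsNM-Rs 1, 4 and 5. It was 2.21-fold higher in NM-Rs, while the mice alone spanned from 788 to 1737 (log2 fold change 1.21 ± 0.22 SE, limma adjusted p = 5.42e-04). Atp5sl, a factor for the membrane arm of complex I despite its name, was lower, with 503 to 671 normalized counts (median 573, n = 6) in NM-Rs and 1078, 1096 and 1118 in the mice (log2 fold change -0.94 ± 0.09 SE, limma adjusted p = 5.81e-06). Cox7a2l, which links complexes III and IV into supercomplexes, had 2450.4, 2662 and 2813 normalized counts in mice 1 to 3, 1430.4, 1221 and 1594 in ssNM-Rs 2, 3 and 6 and 1479, 1273 and 1553 in lsNM-Rs 1, 4 and 5. It was 1.85-fold lower in NM-Rs without overlap (log2 fold change -0.89 ± 0.11 SE, limma adjusted p = 2.65e-05).

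Summed over all members, the reads of the respiratory chain made up 0.645 to 0.783% of the normalized counts of a mouse library, 0.877 to 0.943% of an ssNM-R library and 0.775 to 0.848% of an lsNM-R library. The sum was 81284 ± 8830 (SD, n = 3) in mice and 101313 ± 9173 (SD, n = 6) in NM-Rs, a ratio of 1.25, with overlap between mouse 3 (90006) and lsNM-R 5 (89327). By complex, the ratio of NM-Rs to mice was 1.38 for complex I, 0.999 for complex II, 1.32 for complex III, 1.08 for complex IV and 1.26 for complex V. In these sums every NM-R lay above every mouse for complexes I, III and V, while the species overlapped for complexes II and IV. The gap between lsNM-R 5 and mouse 3 was narrow for complex III (9447 and 9376) and complex V (35482 and 35388). As a percent of the library, complex V overlapped as well, at 0.251 to 0.308% in mice and 0.308 to 0.375% in NM-Rs. Without its 3 members with the most reads (Uqcrc1, Cyc1 and Uqcrh), the ratio of complex III was 1.04. For the associated factors the ratio was 1.19, and 2.04 without Cox7a2l, Atp5if1 and Atp5sl.

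**Figure D4:**
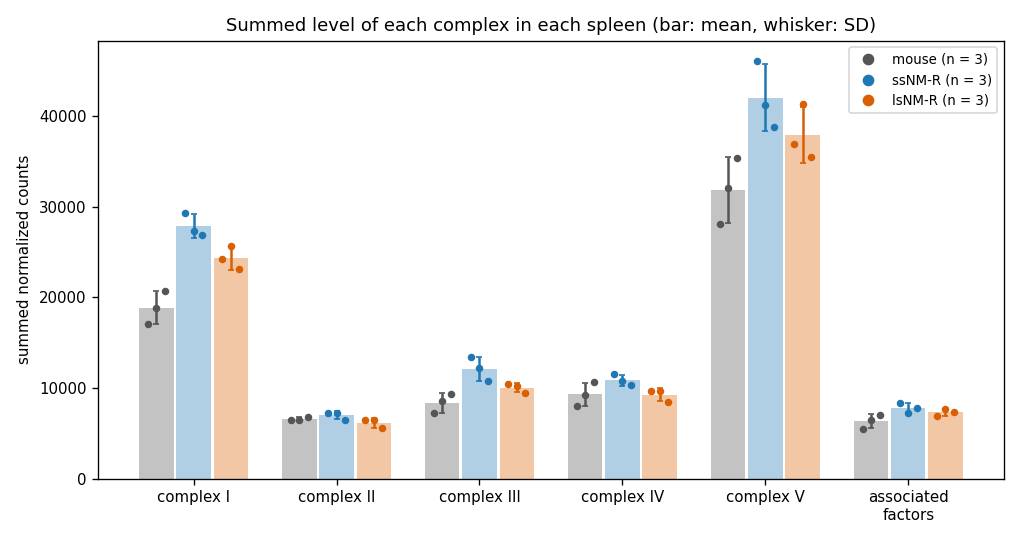
Summed normalized counts of the members of each complex and of the associated factors in each spleen (points), with the mean (bars, from 0) and SD (whiskers) of each group, n = 3. For complex I the sums span 17095 to 20721 in mice, 26873 to 29357 in ssNM-Rs and 23099 to 25622 in lsNM-Rs, while those of complexes II and IV overlap between the species.

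The mice differed among themselves in a shared direction. Mouse 1 had the lowest level of the 3 for 62 of the 70 members (88.6%), against 38.4% of all genes, and mouse 3 had the highest for 61 (87.1%), against 34.8%. All 12 erythroid markers in the table (of 18 listed) and all 4 markers of dividing cells in it (of 10 listed) had this order as well. Of 12 T cell markers 10 were lowest in mouse 1 and 7 highest in mouse 3. Of 11 macrophage and 9 smooth muscle markers, 0 were lowest in mouse 1. The erythroid sums were 26869 in mouse 1, 62887 in mouse 2 and 79253 in mouse 3. They came to 191796 to 288713 normalized counts in NM-Rs, where all 12 erythroid markers were called higher, and none was at 0 throughout a group. All 4 markers of dividing cells were higher too, with sums of 3351 to 7424 in mice and 13759 to 17683 in NM-Rs. All 11 B cell and all 12 T cell markers were called lower in NM-Rs. Of 9 granulocyte markers 7 were called higher and 2 lower, and of 11 macrophage markers 4 higher and 5 lower. Among all genes these shares were 39.7% higher and 38.8% lower. The part of red cell precursors, of dividing cells or of these other cells in the level of the members was not tested. Without mouse 1, 35 members were called higher and 16 lower in NM-Rs.

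Of 59 other genes of the pathway, taken from lists outside the members, 22 (37.3%) were called higher and 19 (32.2%) lower, where 39.7% and 38.8% of all genes were. These shares lie near the background, and their difference from those of the members was not tested. Of 3 assembly factors of complex II in the table, 1 was higher and 2 lower: Sdhaf4 had a log2 fold change of 0.93 and Sdhaf1, which helps to load iron-sulfur clusters, -2.44. Of 7 further assembly factors of complex I, 3 were higher and 1 lower, from Nubpl, an iron-sulfur carrier (1.74), to Tmem186 (-2.07). Of 6 for complex III, 3 were higher and 1 lower, from Lyrm7 (1.64) to Uqcc1 (-1.02). Of 17 for complex IV, 7 were higher and 5 lower. Coa5 stood out there with 39.5 to 75.1 normalized counts (median 50.1, n = 6) in NM-Rs and 2266, 2297 and 2417 in the mice (log2 fold change -5.46 ± 0.23 SE, limma adjusted p = 2.06e-08), and Cmc2 was the highest (1.77). Of the 3 genes listed for assembly and inhibition of complex V, all were higher, among them the member Atp5if1, which is not counted in the 59, and Atpaf1 with a log2 fold change of 0.84.

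Of 10 genes of the tricarboxylic acid cycle, which supplies the chain with NADH and succinate, 2 were called higher and 6 lower, against 39.7% and 38.8% of all genes, with a median log2 fold change of -0.29. Their difference from the members was not tested. Idh2, the mitochondrial NADP-dependent isocitrate dehydrogenase, was the highest (1.38) and Fh, fumarate hydratase, the lowest (-0.90). Of 11 regulators of mitochondrial transcription and biogenesis, 3 were higher and 3 lower (median 0.03), from Tfb1m (0.99) to Polg, the mitochondrial DNA polymerase (-0.55). Of 3 genes of outer membrane channels and import receptors, 1 was higher (Tomm40, 1.02) and 1 lower (Tomm70, -0.32). All 13 protein genes of the mitochondrial genome were called higher in NM-Rs, against 39.7% of all genes. The differences were uneven, with log2 fold changes from 0.63 to 10.6 (median 5.32). The sums of these genes were 243391 to 262008 normalized counts in mice and 690085 to 860244 in NM-Rs. The part of the gene models of each species, and of reads that map to several places, in these values was not tested.

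Mouse promoter sequence was read for the members, since the rule did not use it. Of the 70 members, 65 matched 1 gene of the mouse annotation (GENCODE vM1 on mm9), 8 of them under an earlier name. The window ran from 250 bases before to 50 bases after the annotated start, and 3 motifs were searched on both strands. The ETS motif CCGGAAG, bound by GABP, was found in 14 of 65 members (21.5%), in 13.6% of the 10317 promoters of genes in the table and in 10.8% of all 22367 promoters. The YY1 motif AAGATGGC was found in 9 members (13.8%), against 3.75% of genes in the table and 3.30% of all. The NRF1 palindrome was found in 3 (4.62%), against 1.48% and 1.18%. No test was made of these shares. Of the 14 members with the ETS motif 9 were called higher and 2 lower in NM-Rs, against 27 and 12 of the 51 without it. Of the 9 with the YY1 motif 2 were higher and 4 lower, against 34 and 10 of the 56 without it. Among all genes 39.7% were called higher and 38.8% lower. Whether a motif goes with a direction was not tested. These windows are of the mouse only and say nothing of NM-R promoters.

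To show this, the 150 bases before the start are printed for 3 members that were higher in NM-Rs and carry the ETS motif, and for Cox4i1, which carries it and was called lower, a call that several alternatives given above did not keep. Sequences run from 5′ to 3′ on the strand of the gene in mm9, and capitals mark the motif, here as its reverse complement:
Ndufb9, chr15:58765215-58765364, plus strand: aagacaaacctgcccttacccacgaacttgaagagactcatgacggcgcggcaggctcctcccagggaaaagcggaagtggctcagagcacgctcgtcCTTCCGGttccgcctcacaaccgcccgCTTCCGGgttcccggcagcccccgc
Ndufs8, chr19:3912718-3912867, minus strand: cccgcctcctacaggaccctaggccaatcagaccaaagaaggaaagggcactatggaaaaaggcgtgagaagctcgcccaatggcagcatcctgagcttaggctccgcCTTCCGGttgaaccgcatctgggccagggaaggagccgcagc
Atp5f1e, chr2:174289607-174289756, minus strand: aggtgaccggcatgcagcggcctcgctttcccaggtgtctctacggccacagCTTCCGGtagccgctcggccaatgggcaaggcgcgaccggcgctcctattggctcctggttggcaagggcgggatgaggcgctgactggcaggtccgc
Cox4i1, chr8:123192040-123192189, plus strand: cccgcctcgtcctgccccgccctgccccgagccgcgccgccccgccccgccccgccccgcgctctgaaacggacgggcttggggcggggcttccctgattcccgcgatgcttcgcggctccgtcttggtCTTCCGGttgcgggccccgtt
The motif occurs in all 4, at different distances from the start, and Ndufb9 holds it at 2 places. The other member with the motif that was called lower was Atp5h.

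Against mice, both NM-R cohorts showed the mixture separately. These comparisons share the 3 mice, and their values are given side by side. In ssNM-Rs 42 members were called higher and 10 lower (limma adjusted p under 0.05), with a median log2 fold change of 0.54, where 38.0% of all genes were called higher and 37.5% lower. In lsNM-Rs 34 were higher and 16 lower, with a median of 0.28, where 38.1% of all genes were called higher and 37.0% lower. By complex, the medians in ssNM-Rs and lsNM-Rs were 0.41 and 0.22 for complex I, 0.30 and 0.17 for complex II, 0.56 and 0.27 for complex III, 0.43 and 0.18 for complex IV, and 0.58 and 0.35 for complex V. Those of complex IV cover all 10 subunits, tissue isoforms included. For its 6 subunits used in most tissues the medians were 0.24 and 0.01. For the associated factors they were 0.80 and 0.78.

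The comparison of lsNM-Rs with ssNM-Rs asked how an enlarged spleen differs from a small one in the same species. Not a single member was called, higher or lower, and the lowest limma adjusted p among them was 0.442 (from 0.0758 in DESeq2 to 0.731 without mouse 2 over the alternatives). The share of all genes called was 0.0% higher and 0.0% lower in limma, whereas DESeq2 called 38 genes higher and 16 lower, none of them a member. By their means, 63 of 70 members, and 56 of the 58 subunits, had a lower mean log2 level in lsNM-Rs. The median log2 difference was -0.17, against 0.01 for all genes. At an unadjusted limma p under 0.05, 13 members were lower and 0 higher, that is 18.6%, where 3.55% of all genes were lower and 5.24% higher. In 21 members (30.0%) all 3 lsNM-Rs lay below all 3 ssNM-Rs and in 1 they lay above, where the background was 6.23% lower and 6.84% higher. Members share libraries, so these counts are not independent observations.

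The lower means were spread over the complexes. All members of complexes II, III and V, 26 of 27 subunits of complex I and 9 of 10 of complex IV had a lower mean in lsNM-Rs, with medians of -0.18, -0.19, -0.26, -0.21 and -0.16 for complexes I to V. Associated factors were divided into 7 lower and 5 higher (median -0.07). At an unadjusted limma p under 0.05 there were 7 of 27 subunits of complex I, 0 of 3 of complex II, 2 of 7 of complex III, 1 of 10 of complex IV, 1 of 11 of complex V and 2 of 12 associated factors. The 5 members with the smallest unadjusted p were Atp5f1d, Ndufs7, Ndufa13, Ndufs3 and Ndufa7, 4 of which were also lower in NM-Rs than in mice. Atp5f1d, the delta subunit, was at 1131, 1105 and 1194 normalized counts in ssNM-Rs and 759.9, 892 and 809 in lsNM-Rs (log2 fold change -0.48 ± 0.12 SE, limma adjusted p = 0.442). Ndufs7 was at 641, 659 and 592 in ssNM-Rs and 489, 479 and 429 in lsNM-Rs (log2 fold change -0.44 ± 0.12 SE, limma adjusted p = 0.442). The groups did not overlap for either, nor for Ndufa13 (log2 fold change -0.34 ± 0.10 SE, limma adjusted p = 0.442) and Ndufs3, a core subunit of the ubiquinone module (log2 fold change -0.29 ± 0.09 SE, limma adjusted p = 0.445), and Ndufa7 (log2 fold change -0.41 ± 0.15 SE, limma adjusted p = 0.488). Ndufaf2 was the 1 member with all lsNM-Rs above all ssNM-Rs (log2 fold change 0.34 ± 0.22 SE, limma adjusted p = 0.671).

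**Figure D5:**
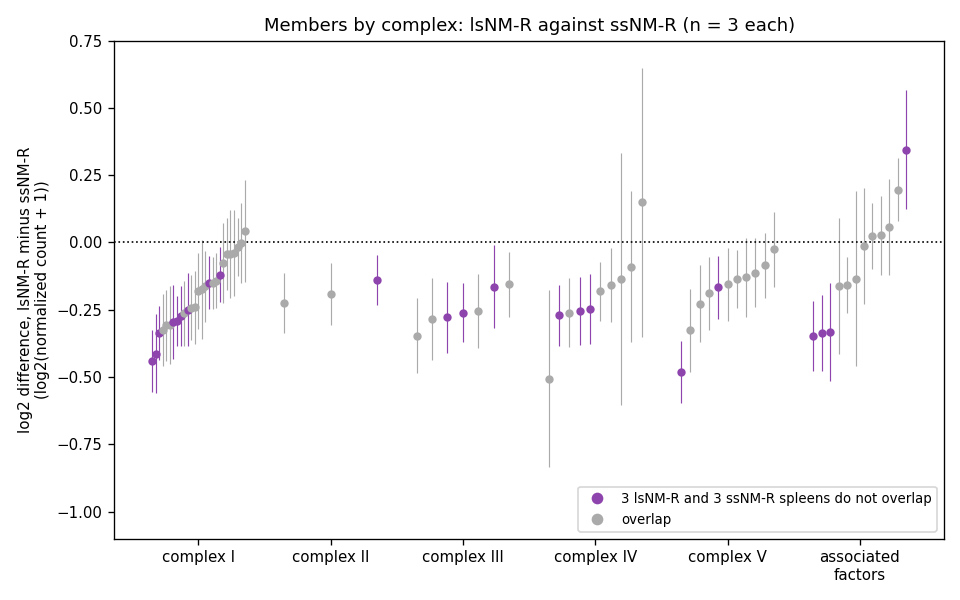
Log2 difference of each member, lsNM-R minus ssNM-R (n = 3 each), with its standard error, by complex. Purple points mark the 22 members whose 3 lsNM-R and 3 ssNM-R spleens do not overlap, 21 of them lower in lsNM-Rs. Most points lie below the dotted line at 0.

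The difference was uneven over the spleens. Of the 6 NM-R spleens, ssNM-R 2 had the highest level for 42 members (60.0%), against 18.5% of all genes, and lsNM-R 5 the lowest for 38 (54.3%), against 15.9%. The 13 members at an unadjusted limma p under 0.05 became 4 without ssNM-R 2, 5 without lsNM-R 5, 6 without ssNM-R 3, 7 without mouse 2 and 20 without ssNM-R 6, while the number of members lower in lsNM-Rs stayed between 55 and 67 whichever spleen was left out. Within the 3 libraries with fewer reads, lsNM-R 1 lay below the mean of ssNM-Rs 2 and 3 for 63 members (median -0.20). Within the 3 with more reads, the mean of lsNM-Rs 4 and 5 lay below ssNM-R 6 for 59 (median -0.15). All genes had a median of 0.00 in both classes.

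Means of several marker lists also differed between the cohorts, and the cohort difference of a gene was related to its base content. In lsNM-Rs 11 of 11 striated muscle and 9 of 9 smooth muscle markers had lower means than in ssNM-Rs. Of all 12946 genes, 6588 had higher means in lsNM-Rs. The muscle sums overlapped, at 20518 to 33733 in lsNM-Rs and 25262 to 40520 in ssNM-Rs for smooth muscle. For striated muscle they were 627 to 1343 and 934 to 1475. Of the lsNM-Rs, lsNM-R 5 was highest in both. In lsNM-Rs 7 of 9 granulocyte markers had higher means, with granulocyte sums of 36483 to 46219 against 26856 to 35171 normalized counts. Means were also higher in lsNM-Rs for 10 of 11 B cell markers (median log2 difference 0.31) and 11 of 12 T cell markers (median 0.37), and 6 of 8 adipose markers had lower means. Erythroid markers had a median difference of -0.07, with sums of 191796 to 277327 in lsNM-Rs and 194737 to 288713 in ssNM-Rs. The difference between cohorts fell with the G and C content of the mouse transcript (Spearman's rho -0.495 over 65 members and -0.360 over 10317 genes). With transcript length, rho was 0.129 over the members and 0.247 over all genes matched, and the members are shorter than most genes. The part of these in the lower level of the members was not tested.

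Between the species, the members' differences were correlated with transcript length. Members are short, with a median mouse transcript of 838 bases against 3090 over all genes matched, and the log2 fold change of NM-Rs to mice fell with length (Spearman's rho -0.303 over 65 members, -0.142 over 10317 genes). With G and C content, rho was 0.021 over the members and 0.024 over all genes matched. These correlations are across genes, which are not independent replicates, and mouse lengths stand in for those of the NM-R gene models. The part of length in the members' difference between the species was not tested.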

How the data were processed

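RNA-seq of 9 spleens was used (3 per group). Per the labels and the methods, reads were aligned by the authors with STAR 2.5.3a to mm9 (mouse) or the NM-R genome and counted per gene with HTSeq 0.10.0. The labels name a HiSeq2500 and a stranded mRNA kit, whereas the methods name a NovaSeq and a stranded total RNA kit. Whether counting used the strand is not given in the sources used here. The deposited signal values are read counts divided by 1 DESeq2 size factor per library, over both species, and are not divided by gene length. Every value (100%) was a whole multiple of the step of its library (within 0.001 reads), so that whole reads could be recovered, between 7815326 and 18387599 per library. The authors deposited no fold change or p-value in this table.

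Values were taken as log2(normalized count + 1) with no filter and analysed with limma 3.58.1 in R 4.3.3. The design had a mean for each of the 3 groups, the variance was trended, tests were 2-sided, and p-values were adjusted by Benjamini-Hochberg over the 12946 genes (threshold 0.05). The script was tested on simulated data. Folds are ratios of group means. Medians, sums, counts and correlations over members are descriptions without a test. Alternatives were edgeR 4.0.16 and DESeq2 1.42.0 on the whole reads, other pseudocounts, scalings and filters, and each spleen left out. With 3 spleens per group, p-values weigh a difference between group means against the spread between these animals, moderated over all genes.

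Members and gene lists were chosen with earlier results of these data known. Of the listed genes only those in the table were used, for example 9 of 16 granulocyte and 11 of 15 striated muscle markers. Genes named with values are, per complex, up to 3 of the highest and 3 of the lowest called subunits whose mean reached 10 normalized counts in both species, all of complex II, the extreme associated and assembly factors, the tissue isoforms, members at 3 reads or fewer throughout a species, the 5 smallest p between the NM-R cohorts and the extremes of each other list. Further members (among them Ndufc2, Ndufs8, Ndufv1, Atp5a1, Atp5if1, Cox7a2l and Ndufaf2) were named after their values were seen. Mouse positions and promoters come from GENCODE vM1 on mm9. 1 member is counted in the summaries but not reported by itself here.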

Additional observations from a re-analysis of the deposited data

How the results depend on the processing

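Over the alternatives run, the members called higher in NM-Rs than in mice numbered 35 to 42 and those called lower 11 to 16, and the median of the members stayed between 0.33 and 0.52. The lower end of the median, 0.33, was reached without the Ndufaf factors. In ssNM-Rs 37 to 43 were called higher and 10 to 13 lower, and in lsNM-Rs 27 to 38 higher and 7 to 16 lower. Between the NM-R cohorts 0 members were called under every alternative. The sum of complex III without its 3 members with the most reads was 1.04 times that of mice, and that of the associated factors 2.04 times, since the remaining members moved differently from those left out.

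Replicate numbers of the labels are shared by different animals, of different species for all 3 pairs, and the deviations of same-numbered spleens were uncorrelated (r from -0.00453 to 0.0101), so they do not pair the samples. With the replicate block, 40 members were called higher and 13 lower in NM-Rs, 7 lower in lsNM-Rs against mouse (median 0.49), and the median of lsNM-Rs against ssNM-Rs turned to 0.0459 from -0.17, with 28 members lower in place of 63 and 0 in place of 13 at an unadjusted limma p under 0.05. In that fit the lone animals 4, 5 and 6 do not bear on the comparison of cohorts, which then rests on 1 lsNM-R against 2 ssNM-Rs through the mice.

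Of the members and other genes named by the rule, none reversed. Calls that were lost or gained are given beside Sdhc, Uqcrfs1, Cox4i1, Cox6a2 and Cox8a, to which the block adds Sdha and Cox4i1 (lost, limma adjusted p = 0.0679 and 0.128) and Cox8a (gained, 0.0222). Depth limits Cox6b2 in NM-Rs and Cox7a1 in mice, which rest on a few reads each. The within-class medians of the cohort comparison (-0.20 and -0.15) were chosen after seeing the data and rest on 1 spleen of one cohort each.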
